A study of Homo sapiens with 6 samples.

Results

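The miR-193 and miR-365 microRNAs come from 2 gene clusters, MIR193B with MIR365A on chromosome 16 and MIR193A with MIR365B on chromosome 17. All entries of the deposited miRNA table whose name starts with miR-193a, miR-193b, miR-365a or miR-365b were taken, on either arm, which gave 7 of the 787 mature miRNAs listed. Their levels were compared between A549 cells given pcDNA4 carrying SMARCA4 and A549 cells given empty pcDNA4, both delivered with a Lipofectamine reagent and harvested at 48 h, with 3 libraries a group that the submitters describe as biologically independent. A549 is a long-established epithelial cell line from a human lung adenocarcinoma, and SMARCA4, also called BRG1, is an ATPase subunit of the SWI/SNF chromatin remodelling complex. The labels call the transfection a restoration of SMARCA4, so cells of both groups share the parental background of the line, and delivery was transient in 1 cell line. The sources used here do not give the share of cells that took up the plasmid. Each library is a bulk sample, in which fewer cells making a miRNA and less of it per cell cannot be told apart.

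A microRNA is cut from a hairpin precursor, and either arm of the hairpin, named 5p or 3p, can be loaded into an Argonaute protein. It then lowers the output of messenger RNAs that pair with its seed, bases 2 to 8. The miR-193 3p arms have been reported to repress the survival factor MCL1 and cyclin D1, and are often described as growth-restraining in epithelial tumours. miR-365 has been reported to repress the lung lineage factor NKX2-1. In mice the miR-193b and miR-365 cluster has been studied in brown fat cells.

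The mature sequences are shown because they decide which of the 7 entries can be told apart by their reads. They are RefSeq sequences on GRCh38.p14, written 5′ to 3′ with the seed in capitals, and all 7 names had a match.
hsa-miR-193a-3p: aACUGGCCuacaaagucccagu
hsa-miR-193b-3p: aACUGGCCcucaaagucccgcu
hsa-miR-193a-5p: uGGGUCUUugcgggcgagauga
hsa-miR-193b-5p: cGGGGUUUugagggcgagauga
hsa-miR-365b-3p: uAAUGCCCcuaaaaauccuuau
hsa-miR-365a-5p: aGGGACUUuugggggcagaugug
hsa-miR-365b-5p: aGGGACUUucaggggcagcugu

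The 3p arms of miR-193a and miR-193b share their seed and differ at 4 of 22 positions. Counted from 1 at the 5′ end, with the miR-193a-3p base first, these are U9C, A10U, A20G and G21C. The 5p arms of the same hairpins also differ at 4 positions (U1C, U5G, C6U and C11A, with the miR-193a-5p base first), and since 2 of these lie in the seed, miR-193a-5p and miR-193b-5p have different seeds. The 5p arms of miR-365a and miR-365b share a seed and differ at 3 of the 22 positions compared. The 3p arms of miR-365a and miR-365b are identical over all 22 bases in RefSeq, so reads of that sequence cannot be assigned to chromosome 16 or 17. The values given here are those of the entry named miR-365b-3p, which may hold reads from both hairpins. A separate entry for miR-365a-3p was not analysed here. No other human miRNA of the RefSeq table carried any of these 5 seeds.

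The 2 miR-193 hairpins are shown whole, with both mature arms in capitals, because the results set the arms of each hairpin against each other. Each hairpin gives its 5p arm first and its 3p arm after the loop.
MIR193A: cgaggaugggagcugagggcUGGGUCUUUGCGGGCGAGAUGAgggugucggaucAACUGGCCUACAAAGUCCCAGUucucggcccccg
MIR193B: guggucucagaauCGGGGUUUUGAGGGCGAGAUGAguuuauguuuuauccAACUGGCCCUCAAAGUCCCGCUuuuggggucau

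All 4 hairpins lie on the plus strand, at the same positions in RefSeq and GENCODE 29 (GRCh38). MIR193B (chromosome 16, 14303967 to 14304049) and MIR365A (chromosome 16, 14309285 to 14309371) are 5235 bases apart, both in an intron of the lincRNA gene MIR193BHG (14301389 to 14331067). MIR193A (chromosome 17, 31559996 to 31560083) lies inside no other annotated gene. MIR365B (chromosome 17, 31575411 to 31575521) is 15327 bases further on, within the lincRNA gene AC003101.1 (31571142 to 31575659), where 11 of its bases overlap an exon. MIR4725 is annotated between MIR193A and MIR365B, and its arms were not analysed here.

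The libraries differed in depth. The deposited values are whole read counts times 1 factor per library, and the recovered totals were between 701885 and 1079944 reads in 5 libraries and 7274329 in SMARCA4 replicate 2, which is 8.33 times the mean of the others. A single read was therefore worth 0.422 normalized counts in that library and from 1.64 to 2.61 elsewhere. Of 7 epithelial marker miRNAs, 6 were analysed and all had reads, with a summed level of 425 to 623 in SMARCA4 cells and 356 to 677 in empty vector cells. Of 7 blood markers 3 were analysed, with a summed level of 7962 to 14458 in SMARCA4 cells and 5621 to 7213 in empty vector cells, nearly all of it miR-486-5p. Of 5 endothelial and smooth muscle markers, miR-1-3p and miR-133a-3p were at 0 in all 6 libraries. miR-145-5p averaged 0.141 in SMARCA4 cells and was at 0 in the empty vector libraries. The list summed to 1201 to 1401 in SMARCA4 cells and 746 to 1490 in empty vector cells, nearly all of it from both arms of miR-126. miR-126-5p was at 1158 ± 72.0 in SMARCA4 cells and 969 ± 354 in empty vector cells (SD, n = 3 each). miR-126-3p was at 172 ± 45.3 in SMARCA4 cells and 181 ± 35.3 in empty vector cells (SD, n = 3 each). The part of these markers in any difference given here was not tested. The level of SMARCA4 mRNA, which would check the labels, was not analysed here.

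None of the 7 arms passed the test between SMARCA4 and empty vector cells (limma on log2(value + 1) over 637 miRNAs, Benjamini-Hochberg adjusted p from 0.114 to 0.965). Over all tested miRNAs 9 passed, which is 1.41%, of which 6 rose (0.942%) and 3 fell (0.471%). The split was 4 that rose and 8 that fell with libraries rescaled to the same total, and 17 and 24 without SMARCA4 replicate 2. By edgeR and by DESeq2 on the recovered reads 0 of the 7 passed as well, with lowest adjusted p-values of 0.0948 and 0.0768. A single arm, miR-193a-3p, had an unadjusted limma p under 0.05, against 22.6% of all tested miRNAs. The log2 fold change was positive for 3 arms and negative for 4, with a median of −0.04 over the 7 and −0.05 over all 637. All 7 had a mean of at least 1 and entered the test.

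**Figure D1:**
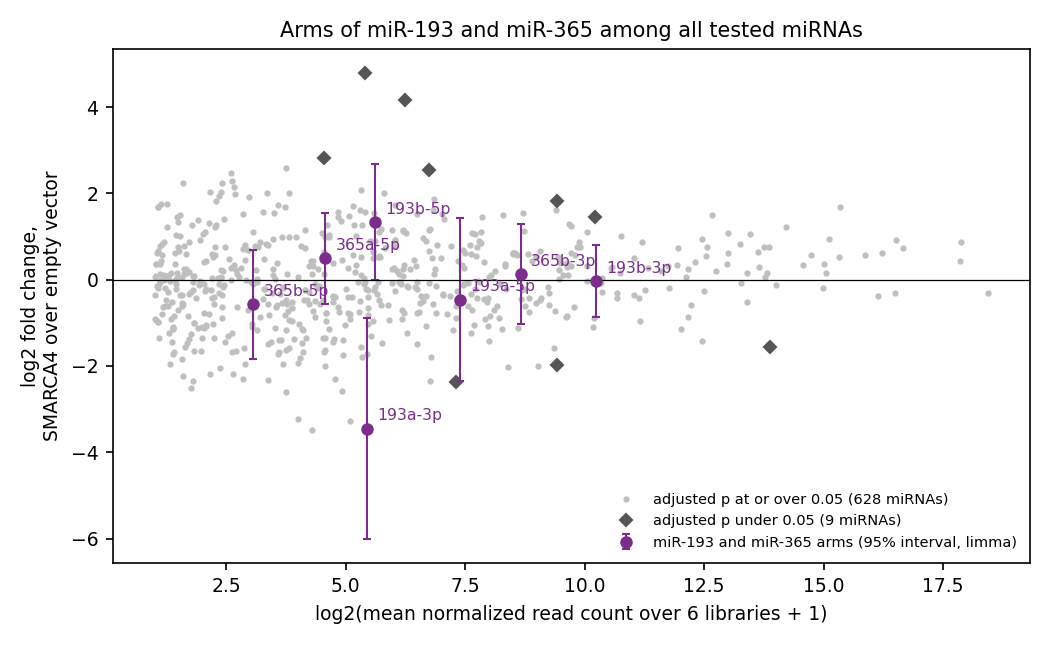
Log2 fold change of SMARCA4 over empty vector cells against mean level for all 637 tested miRNAs, with the 7 arms and their 95% limma intervals in purple and the 9 miRNAs that passed as diamonds. The purple intervals cross 0 for 6 arms, and miR-193a-3p lies lowest of the 7 at −3.45.

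hsa-miR-193b-3p, the main product of the chromosome 16 cluster, was the most abundant arm in every library. It had 1305, 654 and 1747 normalized counts in SMARCA4 replicates 1, 2 and 3, against 1050.3, 1234 and 1253 in empty vector replicates 1, 2 and 3. SMARCA4 replicate 2 held the lowest value of the 6 and SMARCA4 replicates 1 and 3 the highest, so the SMARCA4 libraries lay on both sides of the closely spaced empty vector libraries. The mean was 1235 ± 550 in SMARCA4 cells and 1179 ± 112 in empty vector cells (SD, n = 3 each). The log2 fold change was −0.04 (SE 0.37, 95% interval −0.87 to 0.79, limma adjusted p = 0.965). This interval leaves room for a change of nearly 1 log2 unit in either direction. The sign turned without SMARCA4 replicate 2, to 0.36, and without empty vector replicate 3, to 0.01. By mean level it ranked 69 among the 787 miRNAs, and between 60 and 102 in the single libraries.

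hsa-miR-365b-3p, the second most abundant arm by mean, had 489, 176 and 642 normalized counts in SMARCA4 replicates 1, 2 and 3, against 388, 217 and 510.2 in empty vector replicates 1, 2 and 3. The groups overlapped, and replicate 2 was the lowest library in each of them. The mean was 436 ± 238 in SMARCA4 cells and 372 ± 147 in empty vector cells (SD, n = 3 each), with a log2 fold change of 0.12 (SE 0.51, 95% interval −1.04 to 1.28, limma adjusted p = 0.933). Its sign was negative with libraries rescaled to the same total, a scaling that moved the median of all miRNAs by −0.26. Relative to that median it stayed positive, at 0.10. The sign also turned without SMARCA4 replicate 1 (−0.06), SMARCA4 replicate 3 (−0.25) or empty vector replicate 2 (−0.22). Levels of miR-193b-3p were 2.67, 3.71 and 2.72 times those of miR-365b-3p in SMARCA4 replicates 1, 2 and 3 and 2.70, 5.69 and 2.46 times in empty vector replicates 1, 2 and 3. Adapter ligation differs between miRNAs, so such ratios between arms describe the libraries and not molecules in the cell.

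hsa-miR-193a-5p, the more abundant arm of the chromosome 17 miR-193 hairpin in 5 of the 6 libraries, had 275, 21.5 and 224 normalized counts in SMARCA4 replicates 1, 2 and 3, against 113, 209 and 152 in empty vector replicates 1, 2 and 3. SMARCA4 replicates 1 and 3 were the 2 highest of the 6 libraries, and SMARCA4 replicate 2 was the lowest, with 51 reads in the deepest library. The mean was 173 ± 134 in SMARCA4 cells and 158 ± 48.3 in empty vector cells (SD, n = 3 each), while the log2 fold change was −0.46 (SE 0.84, 95% interval −2.35 to 1.42, limma adjusted p = 0.773). The mean of the values and the mean of their logarithms thus differ in sign. Without SMARCA4 replicate 2 the log2 fold change was 0.69 (limma adjusted p = 0.21), and without both replicates numbered 2 it was 0.91 (limma adjusted p = 0.0736). By edgeR and DESeq2 with all libraries it was 0.13 and 0.14.

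hsa-miR-193a-3p, the arm of the chromosome 17 hairpin that shares its seed with miR-193b-3p, was scarce in SMARCA4 cells and uneven in empty vector cells. It had 5.23, 0 and 4.72 normalized counts in SMARCA4 replicates 1, 2 and 3, against 18.9, 217 and 9.81 in empty vector replicates 1, 2 and 3. In reads these are 2, 0 and 2 in SMARCA4 cells against 10, 114 and 6 in empty vector cells. It was the 1 arm of the 7 whose groups did not overlap, where groups did not overlap for 31.1% of all tested miRNAs and lay lower with SMARCA4 for 15.2%. The count of 0 in SMARCA4 replicate 2 allows up to 3 reads, or 1.27 normalized counts.

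The log2 fold change of miR-193a-3p was −3.45 (SE 1.14, 95% interval −6.02 to −0.88, limma adjusted p = 0.114), and of the 637 tested miRNAs 1 had a lower value. It did not pass, and its size rested on the 2 libraries numbered 2. Pooled over the 6 libraries, 4 reads in SMARCA4 cells stood against 130 in empty vector cells. Weighted by library depth, this was a pooled ratio on the deposited scale of 0.0162 (95% interval 0.00434 to 0.0424). Relative to the total reads of each group it was 0.0102. SMARCA4 replicate 2, the deepest library, weighs most in the SMARCA4 group, and the unweighted ratio of the 2 group means was 0.0405. Without empty vector replicate 2 the pooled ratio was 0.0900 (0.0219 to 0.279), and without SMARCA4 replicate 2 it was 0.0637 (0.0171 to 0.167). Without both it was 0.354 (0.0862 to 1.10), from 4 against 16 reads, and the log2 fold change was −1.30 (limma adjusted p = 0.224). These ratio intervals are exact for pooled reads and cover counting error only. They leave out the spread between libraries, and they count copies made by amplification as separate reads.

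**Figure D2:**
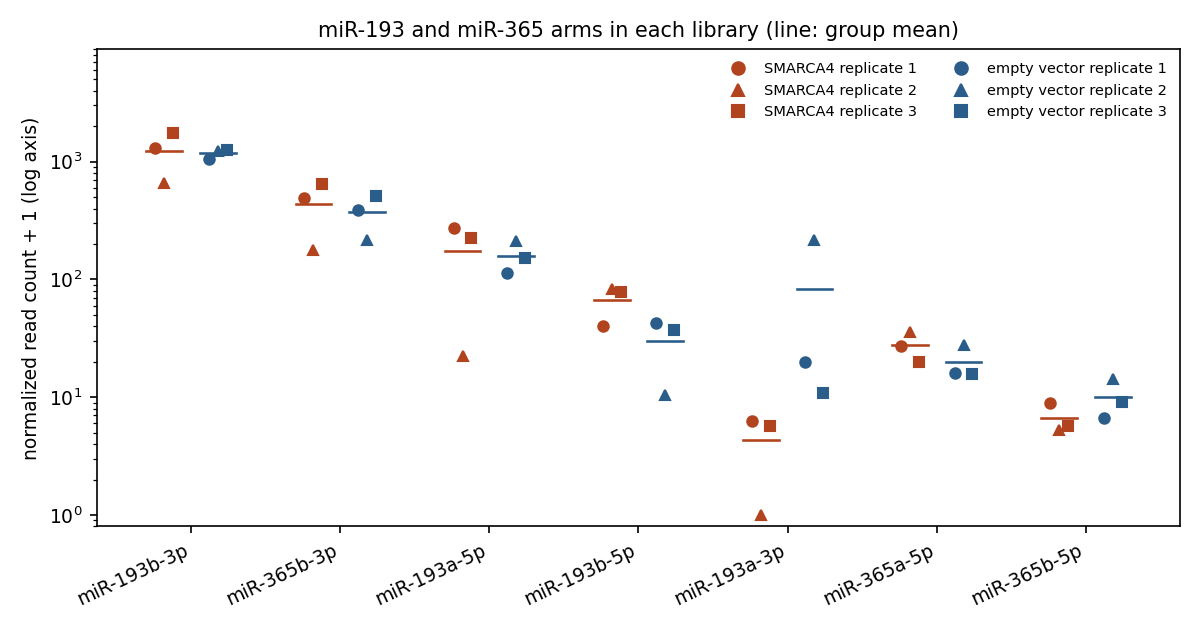
Normalized read count plus 1 (log axis) of the 7 arms in each library, SMARCA4 libraries in red left of empty vector libraries in blue, with a line at each group mean and a symbol for each replicate number. miR-193a-3p spans 9.81 to 217 in empty vector cells and 0 to 5.23 in SMARCA4 cells, while the triangle of SMARCA4 replicate 2 lies lowest for miR-193b-3p, miR-365b-3p and miR-193a-5p.

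The remaining 3 arms are the less abundant strands of their hairpins or, for miR-365a-5p, a strand whose partner could not be assigned. miR-193b-5p had 39.2, 81.5 and 77.9 normalized counts in SMARCA4 replicates 1, 2 and 3, against 41.5, 9.51 and 36.0 in empty vector replicates 1, 2 and 3. The groups overlapped by 1 library, since SMARCA4 replicate 1 lay below empty vector replicate 1. The mean was 66.2 ± 23.5 in SMARCA4 cells and 28.99 ± 17.1 in empty vector cells (SD, n = 3 each), with a log2 fold change of 1.33 (SE 0.60, 95% interval −0.01 to 2.67, limma adjusted p = 0.224). Without empty vector replicate 2, where it had 5 reads, the log2 fold change was 0.69.

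miR-365a-5p had 26.1, 35.1 and 18.9 normalized counts in SMARCA4 replicates 1, 2 and 3, against 15.1, 26.6 and 14.7 in empty vector replicates 1, 2 and 3. The groups overlapped through empty vector replicate 2, and the log2 fold change was 0.49 (SE 0.47, 95% interval −0.56 to 1.54, limma adjusted p = 0.549). miR-365b-5p had 7.84, 4.22 and 4.72 normalized counts in SMARCA4 replicates 1, 2 and 3, against 5.66, 13.3 and 8.18 in empty vector replicates 1, 2 and 3. It rested on 15 reads in each group, and its log2 fold change was −0.58 (SE 0.56, 95% interval −1.83 to 0.68, limma adjusted p = 0.558). The groups overlapped for this arm too.

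Ordered by mean level in SMARCA4 cells, the arms ran miR-193b-3p, miR-365b-3p, miR-193a-5p, miR-193b-5p, miR-365a-5p, miR-365b-5p and miR-193a-3p. miR-193b-3p and miR-365b-3p were neighbours without overlap of their libraries, as were miR-193b-5p and miR-365a-5p, and miR-365a-5p and miR-365b-5p. The ranges of the other neighbours overlapped. Within each SMARCA4 library, miR-365b-3p was still above miR-193a-5p. In SMARCA4 replicate 2 miR-193a-5p was below miR-193b-5p, at 21.5 against 81.5. In SMARCA4 replicate 3 miR-365b-5p and miR-193a-3p were equal, at 4.72. In empty vector cells the order was miR-193b-3p, miR-365b-3p, miR-193a-5p, miR-193a-3p, miR-193b-5p, miR-365a-5p and miR-365b-5p, where miR-193a-3p overlapped its neighbours on both sides because of empty vector replicate 2. miR-193b-5p and miR-365a-5p also overlapped there, and the libraries of the other neighbours did not. In that library miR-193a-3p and miR-365b-3p had the same count, 114 reads.

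Reads of both arms of a hairpin are counted in the same library, so the share of each arm does not depend on how that library was scaled. The log2 ratios of arms add 1 to each scaled value, so they do depend on the scaling where an arm is scarce. For miR-193a, the 3p arm made up 1.87% (2 of 107 reads, 95% Wilson interval 0.514 to 6.56), 0% (0 of 51 reads, with an upper Wilson limit of 7.0, and 3 reads would be a share of 5.88%) and 2.06% (2 of 97 reads, 0.567 to 7.21) of the reads of both arms in SMARCA4 replicates 1, 2 and 3. In empty vector replicates 1, 2 and 3 it made up 14.3% (10 of 70 reads, 7.95 to 24.3), 50.9% (114 of 224 reads, 44.4 to 57.4) and 6.06% (6 of 99 reads, 2.81 to 12.6). The 3 SMARCA4 libraries lay below the 3 empty vector libraries, though the intervals of empty vector replicate 3 and of each SMARCA4 library overlapped. As log2 of the 5p over the 3p arm, each with 1 added, the mean was 5.09 ± 0.52 in SMARCA4 cells and 2.10 ± 1.97 in empty vector cells (SD, n = 3 each).

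That difference of 2.99 log2 units had an exact two-sided permutation p of 0.1, the smallest that 3 against 3 libraries allow. It was 1.91 without empty vector replicate 2. With 5 in place of 1 added to each value it was 2.03 (exact two-sided permutation p = 0.2). Among 155 hairpin names with both arms tested 2 had a larger difference, and the groups did not overlap for 32.3% of these hairpins.

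For miR-193b the balance was the reverse. The 3p arm made up 97.1%, 88.9% and 95.7% of the reads of both arms in SMARCA4 replicates 1, 2 and 3, against 96.2%, 99.2% and 97.2% in empty vector replicates 1, 2 and 3. SMARCA4 replicate 2 held the lowest share (1549 of 1742 reads, Wilson interval 87.4 to 90.3) and empty vector replicate 2 the highest (649 of 654 reads, 98.2 to 99.7). The log2 ratio of the 5p over the 3p arm was −4.16 ± 1.05 in SMARCA4 cells and −5.53 ± 1.19 in empty vector cells (SD, n = 3 each; difference 1.37, exact two-sided permutation p = 0.2), and the groups overlapped. It was 0.70 when empty vector replicate 2 was left out and 0.78 when SMARCA4 replicate 2 was. For miR-365b the 3p entry made up between 97.7% and 99.3% in SMARCA4 cells and between 94.2% and 98.6% in empty vector cells, with the limit that this entry may include miR-365a-3p. Its log2 ratio differed by −0.70 (exact two-sided permutation p = 0.6). Leaving out empty vector replicate 2 gave −0.06, and leaving out SMARCA4 replicate 2 gave −1.10.

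**Figure D3:**
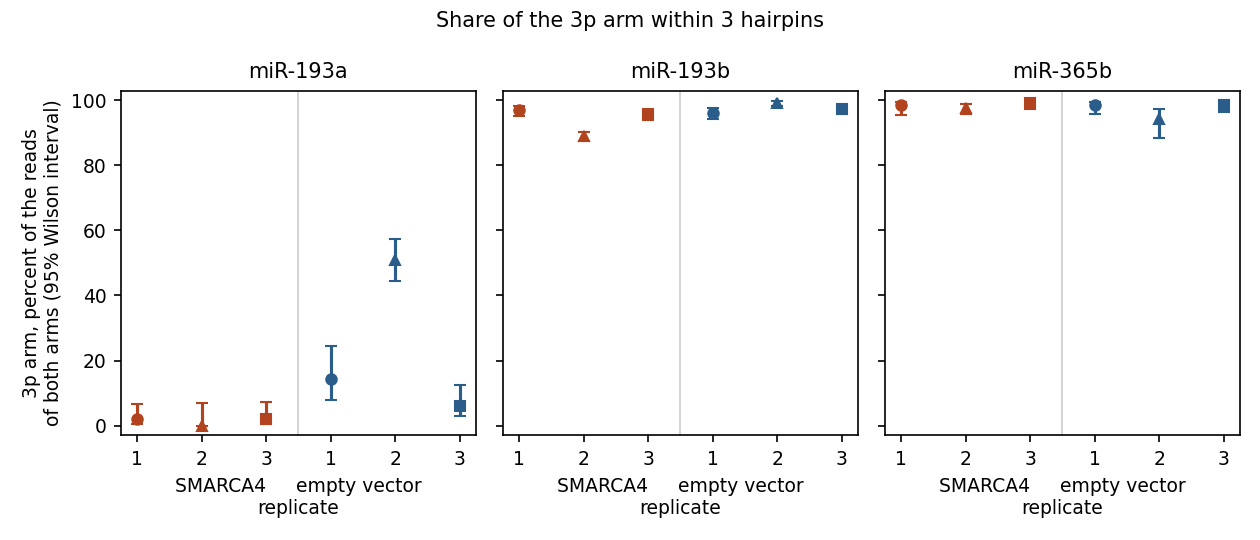
Share of the 3p arm among the reads of both arms of miR-193a, miR-193b and miR-365b in each library, SMARCA4 libraries in red left of empty vector libraries in blue, with 95% Wilson intervals that cover counting error. The miR-193a 3p share is between 0% and 2.06% in SMARCA4 cells and between 6.06% and 50.9% in empty vector cells, and the other hairpins stay at or above 88.9%.

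The 2 clusters were set against each other through miR-193a-5p over miR-193b-3p. The linear ratio was 0.210, 0.0329 and 0.128 in SMARCA4 replicates 1, 2 and 3, against 0.108, 0.169 and 0.121 in empty vector replicates 1, 2 and 3. As log2 of the values plus 1, the mean was −3.35 ± 1.35 in SMARCA4 cells and −2.93 ± 0.34 in empty vector cells (SD, n = 3 each; difference −0.42, exact two-sided permutation p = 0.9), and the groups overlapped. The sign turned without SMARCA4 replicate 2, where the difference was 0.33 (exact two-sided permutation p = 0.4).

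Summed over the 7 arms, the level was 2147, 973 and 2720.0 normalized counts in SMARCA4 replicates 1, 2 and 3, against 1633, 1927 and 1983 in empty vector replicates 1, 2 and 3. The mean was 1947 ± 891 in SMARCA4 cells and 1848 ± 188 in empty vector cells (SD, n = 3 each; difference 98.9, exact two-sided permutation p = 0.8). miR-193b-3p made up between 60.8% and 67.3% of this sum in SMARCA4 cells and between 63.1% and 64.3% in empty vector cells. The sum was 0.0317% of the deposited total in SMARCA4 replicate 2 and from 0.0983% to 0.150% of it elsewhere. Leaving out SMARCA4 replicate 2, the difference was 586 (exact two-sided permutation p = 0.1, the smallest that 2 against 3 libraries allow). The sign turned when other libraries were left out, with a difference of −1.13 if SMARCA4 replicate 1 was omitted, −288 if it was SMARCA4 replicate 3 and −8.42 if it was empty vector replicate 1.

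SMARCA4 replicate 2 was the lowest of the 6 libraries for 5 of the 7 arms, and for 108 of the 637 tested miRNAs. miR-193a-5p there was 10.4 times lower than in the lower of SMARCA4 replicates 1 and 3. miR-365b-3p was 2.78 times lower and miR-193b-3p 1.99 times lower by the same measure. The 5p arms miR-193b-5p and miR-365a-5p were instead highest there, at 2.08 and 1.86 times the lower of the other SMARCA4 libraries. Against the higher of those libraries the gap was smaller. miR-193b-5p had 81.5 normalized counts there and 77.9 in SMARCA4 replicate 3, and miR-365a-5p had 35.1 there and 26.1 in SMARCA4 replicate 1. The depth of this library moves with these values, and its part in them was not tested.

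Empty vector replicate 2 stood apart for miR-193a-3p. Its value was 11.5 times the higher of empty vector replicates 1 and 3. The other arm of the same hairpin, miR-193a-5p, was 1.38 times the higher of the other empty vector libraries, and miR-193b-3p, which shares the seed, was 0.985 times. miR-193b-5p and miR-365b-3p were lower in that library, by 4.36 and 2.35 times against the higher of the other empty vector libraries. miR-193b-5p had 9.51 normalized counts there, against 41.5 and 36.0 in empty vector replicates 1 and 3. miR-365b-3p had 217 there, against 388 and 510.2 in empty vector replicates 1 and 3. The read total of empty vector replicate 2, 933753, lay between those of the other empty vector libraries.

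**Figure D4:**
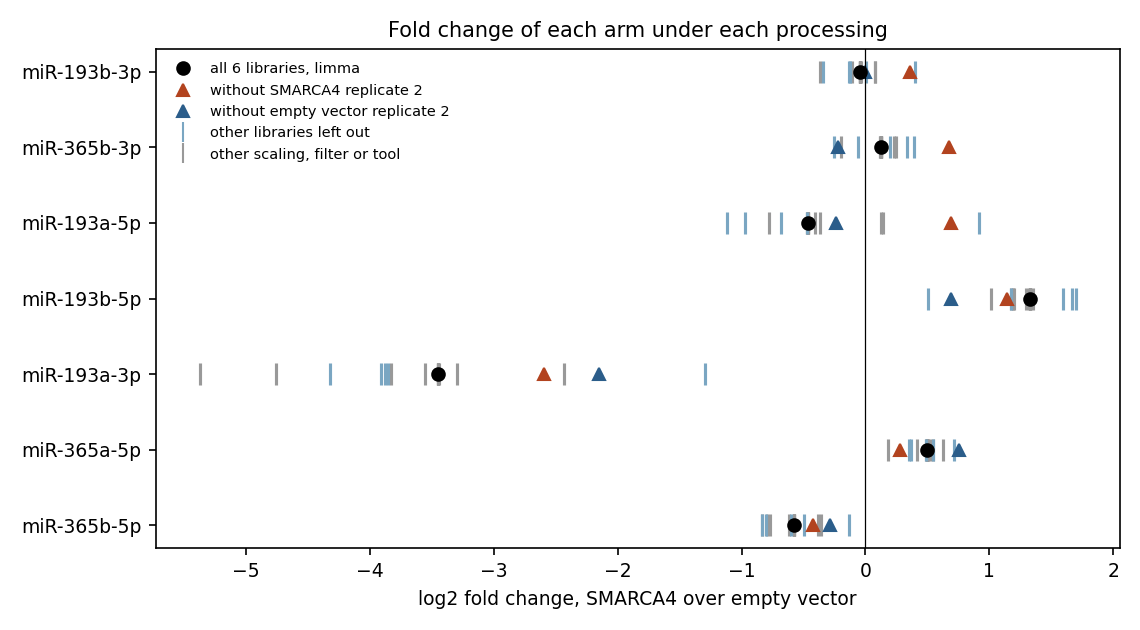
Log2 fold change of each arm, SMARCA4 over empty vector cells, with all libraries (black), without SMARCA4 replicate 2 (red), without empty vector replicate 2 (blue), with any other library or both replicates 2 left out (light blue ticks) and under other scalings, filters or tools (grey ticks). miR-193a-3p stays negative and spans −5.38 to −1.30, and miR-193a-5p lies at −0.46 with all libraries and at 0.69 without SMARCA4 replicate 2.

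The miRNAs whose profile over the 6 libraries lay closest to each arm were found by the root mean squared difference of log2(value + 1), each profile centred on its own mean, among 420 others with a mean of at least 10. This is a description over libraries that share their scaling. Closest to miR-193b-3p were miR-19a-3p (0.17), miR-342-3p (0.19) and miR-23b-3p (0.21), where the median candidate was at 0.73. Closest to miR-365b-3p were miR-484 (0.16), miR-454-3p (0.30) and miR-574-3p (0.31), with the median at 0.93. Closest to miR-365a-5p were miR-1307-3p (0.16), miR-103a-3p (0.20) and miR-1247-3p (0.20), with the median at 0.73.

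The other arms had more distant neighbours. Their median candidates were more distant as well, at 1.39 for miR-193a-5p, 1.11 for miR-193b-5p and 2.45 for miR-193a-3p. miR-382-5p (0.38), miR-331-3p (0.42) and miR-376c-3p (0.53) lay closest to miR-193a-5p, and miR-146b-5p (0.43), miR-99a-5p (0.48) and miR-146a-5p (0.49) to miR-193b-5p. miR-494-3p (0.77), miR-589-3p (1.02) and miR-29a-5p (1.20) lay closest to miR-193a-3p. miR-193b-3p and miR-365b-3p were each other's closest arm, at 0.42, with 38 other miRNAs nearer to miR-193b-3p. miR-193a-5p, from the same hairpin, was the closest arm to miR-193a-3p, at 1.90 and rank 33 among the 420 candidates.

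Of 14 miRNAs reported in fat cell differentiation, largely in mice, 12 were tested, 0 rose and 0 fell, and 7 had a positive and 5 a negative log2 fold change, with a median of 0.34 against −0.05 over all tested miRNAs. The most abundant were miR-27b-3p, at 313047 ± 98452 in SMARCA4 cells and 165481 ± 17898 in empty vector cells, and miR-27a-3p, at 9012 ± 1925 in SMARCA4 cells and 7007 ± 1580 in empty vector cells (SD, n = 3 each). Both are described as inhibitors of fat cell formation, and their limma adjusted p-values were 0.141 and 0.481. Among the 6 epithelial markers 4 had a positive and 2 a negative log2 fold change, and 2 rose, where 0.942% of all tested miRNAs rose. These were miR-141-3p at 182 ± 30.3 in SMARCA4 cells against 31.4 ± 10.8 in empty vector cells and miR-203a-3p at 39.7 ± 2.97 against 4.79 ± 0.972 (SD over 3 libraries a group), and limma gave both an adjusted p of 0.0124. The most abundant of the 6, miR-200b-3p, was at 190 ± 51.8 in SMARCA4 cells and 422 ± 123 in empty vector cells and did not pass (limma adjusted p = 0.109). None of the 3 tested blood markers and neither of the 2 tested endothelial markers passed.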

How the data were processed

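Per the labels' protocols, RNA was extracted with mirVana and sequenced as TruSeq small RNA libraries. The submitters' processing notes name bcl2fastq 2.18.0.12 and the build GRCh38. Trimmer, aligner, counter and miRNA annotation: not given in the sources used here. The authors deposited a normalized signal per mature miRNA, described by the table's name as TMM-scaled. Every value was a whole multiple of its library's smallest step, within 1e-06 reads, so whole reads were recovered for 100% of values.

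Groups and replicate numbers came from sample titles. The main test was limma 3.58.1 (R 4.3.3) with a mean-variance trend on log2(value + 1), over miRNAs with a mean of at least 1, with Benjamini-Hochberg adjustment over all of them and a threshold of 0.05. That scale understates fold changes of scarce miRNAs. edgeR 4.0.16 and DESeq2 1.42.0 on recovered reads, other pseudocounts, filters and scalings, a replicate block and leaving out each library were alternatives. Leaving out both replicates numbered 2 was added after seeing the data. Single values used exact permutation tests. The limma and edgeR fits were tested on simulated data. The simulation gave all miRNAs the same spread and held no library that stood apart other than by depth, so it does not cover such libraries. No libraries agreed within sampling noise. By chi-square per degree of freedom SMARCA4 replicates 1 and 3 were the closest, at 6.61, and SMARCA4 replicate 2 was at 356 and 362 from them. Empty vector replicates 1 and 3 were at 24.6, and empty vector replicate 2 was at 126 and 174 from them. This measure grows with depth, which was highest in SMARCA4 replicate 2. The depth limits scarce arms, where a count of 0 allows up to 3 reads. Named miRNAs are all 7 arms, the 3 nearest profiles of each arm with a mean of at least 10, and the 2 most abundant and any called members of 1 list and 3 marker sets; 1 further list is not reported here. These members and lists were chosen with earlier results of these data known.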

Additional observations from a re-analysis of the deposited data

How the results depend on the processing

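The number of the 7 arms that passed was 0 under every alternative run. The sign of miR-193a-3p, miR-193b-5p, miR-365a-5p and miR-365b-5p was the same under each alternative they entered. The log2 fold change of miR-193a-5p turned to 0.13 with edgeR, 0.14 with DESeq2 and 0.91 without both replicates numbered 2, and ranged from −1.11 to 0.69 with 1 library left out. That of miR-193b-3p turned to 0.0759 with edgeR, 0.0769 with DESeq2 and 0.40 without both, and ranged from −0.35 to 0.36. That of miR-365b-3p turned to −0.20 with libraries rescaled to the same total and ranged from −0.25 to 0.68. The summed level difference was −132 with the same total and ranged from −288 to 586, and the difference between the clusters ranged from −0.98 to 0.33. miR-365b-5p was not fitted with a mean of at least 10, and DESeq2 gave it no adjusted p. Over all miRNAs, 9 calls became 23 without a filter, 47 with DESeq2, 52 without both replicates numbered 2 and between 0 and 41 with 1 library left out. The cause of these differences was not tested. Deviations of libraries with the same replicate number correlated at 0.07, 0.09 and 0.01, and those with different numbers at −0.10 to 0.05. SMARCA4 replicate 3 correlated better with empty vector replicate 1 than with empty vector replicate 3. With 3 libraries a group, such weak correlations cannot show whether the replicate numbers pair the libraries. A fit with the replicate block called 13 miRNAs and 0 of the 7 arms, the lowest adjusted p among them being 0.17. p-values here weigh a group difference against the spread between libraries, with 3 a group, or fewer where libraries were left out. limma takes that spread partly from all tested miRNAs.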
